A study of Mus musculus with 6 samples.

Results

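The transcripts described here are those of the receptors, signal carriers and feedback inhibitors through which T cells read TGF-β: the ligand Tgfb1, the receptors Tgfbr1, Tgfbr2 and Tgfbr3, the SMAD proteins Smad2, Smad3, Smad4 and Smad7, and the nuclear repressors Ski and Skil. The members were chosen by gene name, which gave 10 genes of the 27376 gene names on the array and 18 of its 41174 probes. They were measured in induced regulatory T cells (iTreg cells), which were polarized in culture for 4 days from naive CD4+ T cells. The comparison was 3 arrays of cells from miR-31fl/fl CD4Cre mice (cKO), which lack the microRNA miR-31 in CD4+ T cells, against 3 arrays of cells from control mice. It asked how the loss of miR-31 alters the transcripts of iTreg cells.

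Each array held the cells of 1 mouse of 6 weeks of age on the C57BL/6 background. The starting cells were sorted from spleen as CD4+CD25-Foxp3gfp-CD62Lhi, that is, without the Foxp3 reporter signal. All 6 cultures received plate-bound anti-CD3 at 5 µg/ml, soluble anti-CD28 at 2 µg/ml, TGF-β1 at 5 ng/ml and IL-2 at 40 ng/ml according to the labels, so the ligand was supplied to both genotypes at the same dose. The study's methods give a lower IL-2 dose than the labels. The control mice carried the miR-31fl/fl allele without Cre according to the study's methods, and the CD4-driven Cre was present in the cKO cells only. An effect of Cre and one of the deleted allele cannot be told apart here. No probe of the array was named for miR-31, so the deletion itself was not measured.

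TGF-β is made as a latent precursor, and once released it binds the type II receptor Tgfbr2, which phosphorylates the type I receptor Tgfbr1. Tgfbr1 then phosphorylates Smad2 and Smad3, which join Smad4 and enter the nucleus to act on target genes, while Smad7, Ski and Skil limit the signal at the receptor and on the DNA. In naive CD4+ T cells this pathway, together with T cell receptor stimulation and IL-2, induces Foxp3, the factor that defines regulatory T cells.

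The sequences through which these values were read are shown for the deleted microRNA and for the probes that lie within a reading frame. The mature strand of miR-31 (RefSeq, GRCm38.p6, chr4:88910614-88910635, minus strand) has its seed, bases 2 to 8, in capitals.
mmu-miR-31-5p: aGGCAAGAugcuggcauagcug
The Tgfb1 probe lies at chr7:26489877-26489936 (mm9, plus strand), the Tgfbr1 probe between chr4:47419898-47423556 (plus strand), the Tgfbr2 probe at chr9:116019196-116019255 (minus strand), the Ski probe at chr4:154533410-154533469 (minus strand) and the Skil probe at chr3:31016390-31016449 (plus strand), all as the array's annotation gives them. Each is 60 bases long and reads through without a stop codon in at least 1 frame. The Tgfbr1 probe spans 3659 bases of the genome, so that it matches the spliced transcript across an intron.
Tgfb1: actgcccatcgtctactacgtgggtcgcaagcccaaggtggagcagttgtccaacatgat
Tgfbr1: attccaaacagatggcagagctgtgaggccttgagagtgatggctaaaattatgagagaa
Tgfbr2: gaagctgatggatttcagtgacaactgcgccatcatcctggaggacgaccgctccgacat
Ski: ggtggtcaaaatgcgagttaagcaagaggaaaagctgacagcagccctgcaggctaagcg
Skil: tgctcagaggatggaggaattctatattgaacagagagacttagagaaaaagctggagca

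All levels are the log2 of the processed spot intensity minus the log2 of the array's 75th percentile, so that a level of 0 equals that percentile and a step of 1 is a doubling. The 75th percentile was an intensity of between 987 and 1148 over the 6 arrays, between 49.3% and 57.7% of spots were well above background, and no spot was saturated. Slide 1 held the 3 cKO arrays and control array 1, and slide 2 held control arrays 2 and 3, so a comparison within a slide rests on control array 1 and gives the same difference as a fit with slide as a term. Pearson correlations between arrays over the tested probes ranged from 0.974 to 0.985 within cKO, from 0.984 to 0.989 within control and from 0.948 to 0.984 between genotypes. All 7 T cell markers (Cd3d, Cd3e, Cd3g, Cd4, Cd5, Cd28 and Lck) and all 7 Treg markers (Foxp3, Il2ra, Ctla4, Ikzf2, Ikzf4, Tnfrsf18 and Itgae) were well above background on at least 3 arrays, and so were the CD8 markers Cd8a and Cd8b1. Of the markers of other cells, this held for 1 of 6 of B cells, 2 of 6 of myeloid cells, 1 of 4 of erythroid cells and 1 of 3 of NK cells. The B cell marker was Cd79b, at log2 levels of -1.14, -0.72 and 0.07 in cKO and -0.92, -0.99 and -1.69 in control. The myeloid markers were Csf1r and Fcgr3. Fcgr3 read -5.62, 0.08 and 0.08 in cKO and -2.15, -2.36 and -6.02 in control. Ncr1 of NK cells read -4.27, -4.41 and -4.23 in cKO and -5.88, -5.84 and -6.58 in control, without overlap. It was well above background on 2 cKO and 0 control arrays. Ms4a1, Pax5, Lyz2, Itgam, Alas2 and Ncr1 were below the limit of 3 arrays. The erythroid marker above it, Hbb-b1, was higher in the cKO arrays at its brightest tested probe. The linear signal of that probe was between 0.420 and 0.983 times the 75th percentile in cKO against 0.0519 to 0.239 in control (log2 difference 2.10, limma adjusted p = 0.163). The differences of its 3 tested probes ranged from 0.43 to 2.26. Hba-a1 of the same list went the other way without overlap, at log2 levels of -5.14, -5.11 and -6.57 in cKO and -4.07, -3.80 and -3.32 in control, and it was well above background on 2 control arrays and on 0 cKO arrays and was not tested. The summed CD8 markers were between 3.87 and 4.34 times that percentile in cKO and between 4.42 and 5.61 in control, and the NK marker Klrd1 was between 1.44 and 8.66 in cKO and between 1.01 and 1.79 in control. The part of such cells in the values below was not tested, and in these bulk samples fewer cells of a type and less RNA per cell cannot be told apart.

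Both Tgfbr1 probes gave lower signal in all 3 cKO arrays than in any control array, and so did the brighter 2 of the 3 Ski probes, but no member passed the test after adjustment for all probes. Of the 18 member probes, 17 were well above background on at least 3 of 6 arrays and were tested, and the third Tgfbr2 probe was not. With limma and Benjamini-Hochberg adjustment over 22281 probes, 0 of the 17 had an adjusted p under 0.05, where 0.242% of all tested probes did. At an unadjusted p under 0.05, 3 of the 17 were lower in cKO, beside 11.4% of all tested probes, and 0 were higher, beside 11.5%. The groups did not overlap at 5 of the 17 with cKO lower, beside 20.7% of all tested probes, and at 1 with cKO higher, beside 15.9%. The methods' t-test gave 4 lower and 0 higher at its unadjusted p under 0.05 and 0 after adjustment. Of all 22281 tested probes, the t-test gave 4018 in either direction at its unadjusted p under 0.05 and 0 after adjustment. The median difference was -0.10 on the log2 scale over the 17 member probes and -0.04 over all tested probes. With 17 probes, these counts are too small to set the members apart from the whole array. With 3 arrays against 3, an exact two-sided permutation test of a single probe cannot give a p below 0.10.

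**Figure D1:**
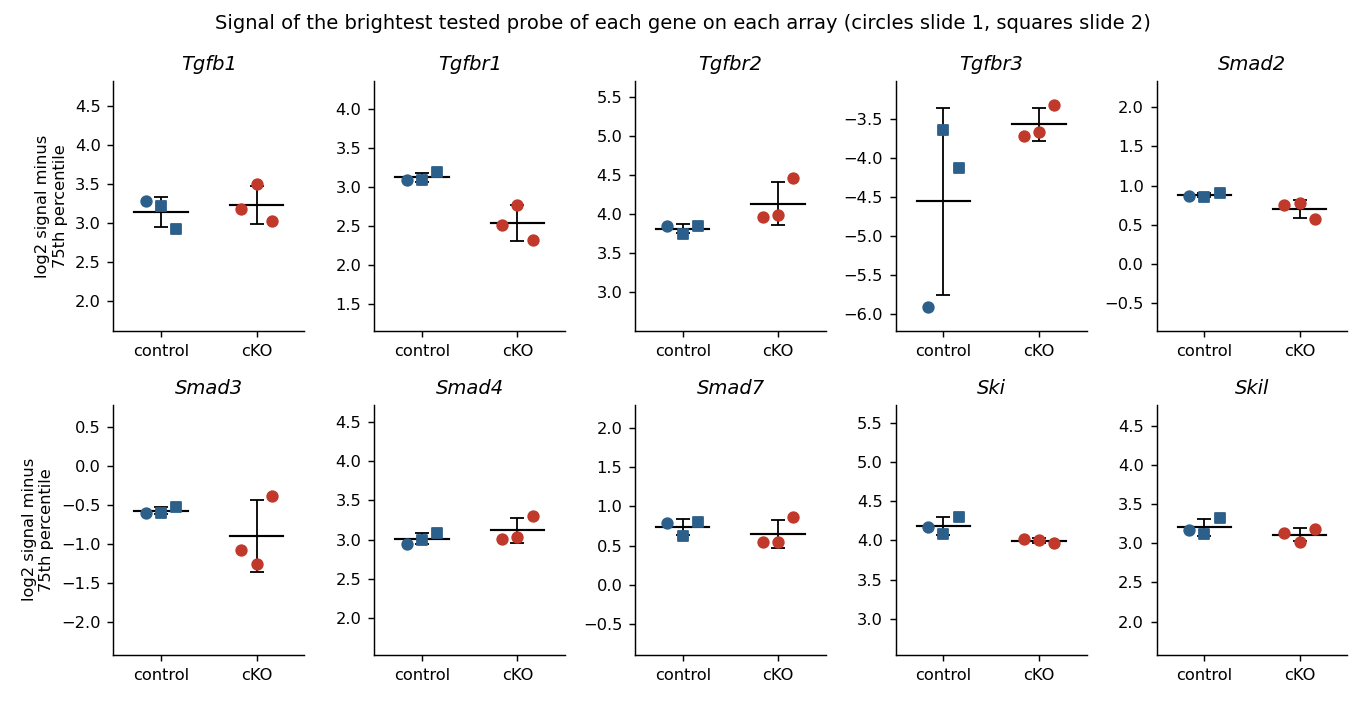
Log2 signal minus the array's 75th percentile (vertical axes, each spanning 3.2 units) of the brightest tested probe of each gene on the 3 control (blue) and 3 cKO (red) arrays; circles are slide 1, squares slide 2, lines the mean and bars the SD. The cKO arrays lie below every control array for Tgfbr1, Smad2 and Ski and above every control array for Tgfbr2, and control array 1 stands low for Tgfbr3.

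Tgfb1, the ligand that T cells also make themselves, differed little between the genotypes. Its probe, spotted 10 times on each array and averaged, gave 3.18, 3.50 and 3.02 in cKO arrays 1 to 3 and 3.28, 3.21 and 2.93 in control arrays 1 to 3. The groups overlapped, with cKO array 2 highest and control array 3 lowest. The difference of 0.10 (SE 0.17, 95% interval -0.31 to 0.50, limma adjusted p = 0.740) took either sign: it was -0.04 on slide 1, -0.04 without cKO array 2, -0.01 without control array 3 and -0.15 with normexp background correction and the 75th percentile.

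Tgfbr1, the type I receptor kinase that phosphorylates Smad2 and Smad3, was lower in cKO iTreg cells on both of its probes. The brighter probe (NM_009370, chr4:47427421-47427480, mm9, plus strand) gave levels of 2.51, 2.77 and 2.32 in the cKO arrays and 3.09, 3.09 and 3.18 in the control arrays. The second probe, printed above, gave -1.93, -1.71 and -1.91 in cKO and -1.22, -1.27 and -1.20 in control. On both, the control arrays lay close together and every cKO array was below them.
The fitted difference was -0.59 (SE 0.14, 95% interval -0.93 to -0.25) at the brighter probe, a linear ratio of 0.666, with a limma adjusted p of 0.124. It was -0.62 (SE 0.11, 95% interval -0.88 to -0.36) at the second, a ratio of 0.650, with a limma adjusted p of 0.0827. Within slide 1 the mean of the cKO arrays minus control array 1 was -0.55 and -0.63, and each cKO array on its own was lower, with differences of -0.77 to -0.31 and of -0.71 to -0.49. Leaving out any 1 array kept the difference between -0.71 and -0.48 at the brighter probe and between -0.69 and -0.58 at the second. The size at the second probe depended on the background correction: with normexp background correction and the 75th percentile it was -0.24 (limma adjusted p = 0.660), where the brighter probe was at -0.80. The call depended on the fit: with arrays weighted by their fit to the model the adjusted p was 0.0494 and 0.0274, and with slide as a term it was 0.678 and 0.523. Of all 22281 tested probes, 2205 passed with array weights and 0 with slide as a term.
A further probe that the array files under the transcript contig TC1640144, described there as TGF-β receptor type-1, is no member by name, and it lies at chr4:47396835-47396894 (mm9, plus strand). It was chosen here after its values were seen. Its levels were 1.77, 2.05 and 1.61 in cKO and 2.46, 2.41 and 2.73 in control, again without overlap. The difference was -0.72 (SE 0.16, limma adjusted p = 0.117) and -0.65 within slide 1.

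Tgfbr2, the type II receptor that binds the ligand first, stood slightly higher in cKO on its brightest probe (NM_009371, chr9:115997155-115997214, mm9, minus strand). The levels were 3.96, 3.98 and 4.45 in the cKO arrays and 3.84, 3.75 and 3.84 in the control arrays. The groups did not overlap, but cKO array 3 stood well above the other two. The difference was 0.32 (SE 0.16, 95% interval -0.07 to 0.71, limma adjusted p = 0.271), 0.29 on slide 1, 0.16 without cKO array 3 and 0.09 with normexp background correction and the 75th percentile.
The second Tgfbr2 probe, printed above, was dim and read -4.26, -3.93 and -2.87 in cKO and -4.03, -4.10 and -4.18 in control, where control array 1 was not well above background. Its groups overlapped, and the difference of 0.42 (SE 0.35, limma adjusted p = 0.479) fell to 0.01 without cKO array 3. The third Tgfbr2 probe (AK090393) was not well above background on any of the 6 arrays and was not tested. The same held for a probe of a Tgfbr2 isoform transcript, D32072.

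Tgfbr3, the co-receptor betaglycan that presents ligand to Tgfbr2, was close to background in these cells (NM_011578, chr5:107537905-107537964, mm9, minus strand). It read -3.72, -3.67 and -3.33 in cKO and -5.91, -3.64 and -4.13 in control. Control array 1, where the probe was not well above background, stood apart from the other five, and the groups overlapped through control array 2. The difference of 0.99 (SE 0.57, 95% interval -0.40 to 2.37, limma adjusted p = 0.324) therefore rested on that array: it was 0.31 without it and 2.33 on slide 1, where it is the only control.

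**Figure D2:**
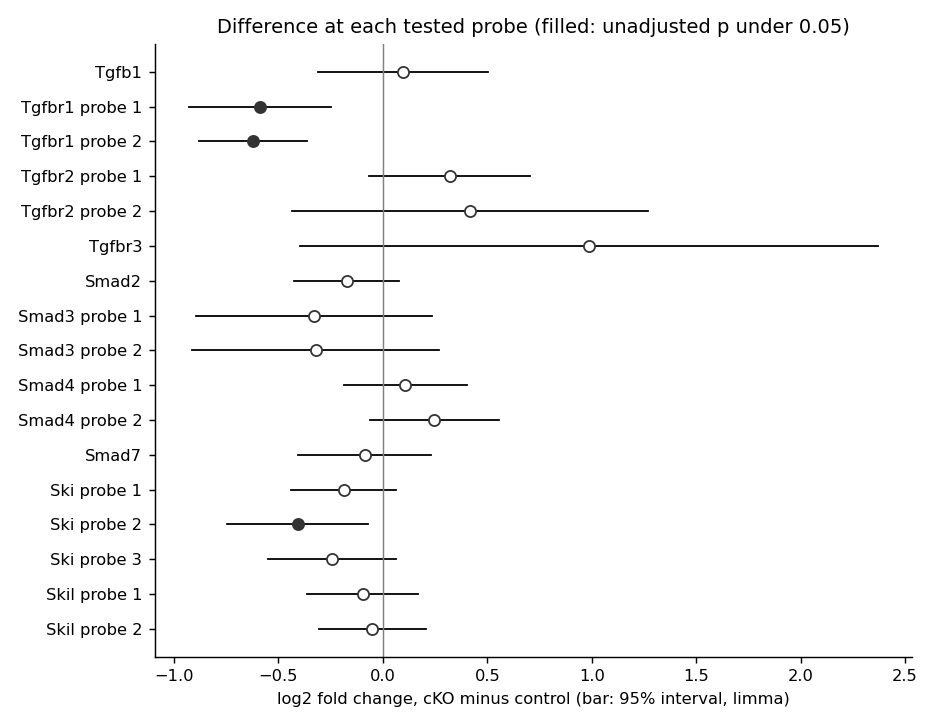
Log2 fold change, cKO minus control, at the 17 tested member probes (points; probe 1 is the brightest of its gene) with limma's 95% interval (bars); filled points had an unadjusted p under 0.05. Both Tgfbr1 probes and the second Ski probe have intervals below 0, and the intervals of the other 14 include 0.

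Smad2 and Smad3, the SMADs that the receptor phosphorylates, both stood lower in cKO without passing the test. Smad2 (NM_010754) read 0.75, 0.78 and 0.57 in cKO and 0.86, 0.86 and 0.90 in control. Its groups did not overlap, with a gap that was small beside the spread in cKO, and the difference was -0.17 (SE 0.10, 95% interval -0.42 to 0.08, limma adjusted p = 0.335), -0.16 on slide 1 and -0.11 without cKO array 3.
The brighter Smad3 probe (NM_016769, chr9:63495131-63495190, mm9, minus strand) read -1.07, -1.26 and -0.38 in cKO and -0.60, -0.60 and -0.52 in control. cKO arrays 1 and 2 were below all control arrays and cKO array 3 was above them. The difference was -0.33 (SE 0.23, 95% interval -0.89 to 0.24, limma adjusted p = 0.407), and it went from -0.59 without cKO array 3 to -0.15 without cKO array 2. With array weights, which gave cKO array 3 a weight of 0.173, the difference was -0.56 with a limma adjusted p of 0.0467.
The dimmer Smad3 probe was well above background on 2 arrays of each genotype and read -4.41, -4.32 and -3.72 in cKO and -4.19, -3.60 and -3.71 in control. Its difference of -0.32 (SE 0.24, limma adjusted p = 0.434) turned to 0.04 on slide 1 and to 0.53 with normexp background correction and the 75th percentile.

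Smad4, the partner shared by all receptor-activated SMADs, was measured by a pair of neighbouring probes of NM_008540 that both stood slightly higher in cKO. The brighter read 3.01, 3.04 and 3.31 in cKO and 2.94, 3.00 and 3.09 in control, and the other 1.98, 2.26 and 2.32 in cKO and 1.86, 1.94 and 2.02 in control. The groups overlapped on both through cKO array 1 and, on the brighter, cKO array 2. The differences were 0.11 (SE 0.12, 95% interval -0.19 to 0.40, limma adjusted p = 0.600) and 0.25 (SE 0.13, 95% interval -0.06 to 0.55, limma adjusted p = 0.281). Without cKO array 3 they were 0.01 and 0.18, and with normexp background correction and the 75th percentile -0.11 and 0.08.

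Smad7, the inhibitory SMAD that TGF-β itself induces and that recruits ubiquitin ligases to the receptor, overlapped between the genotypes. Its probe (NM_001042660) read 0.55, 0.54 and 0.86 in cKO and 0.79, 0.62 and 0.80 in control. The difference was -0.09 (SE 0.13, 95% interval -0.41 to 0.23, limma adjusted p = 0.694), -0.14 on slide 1 and -0.18 with normexp background correction and the 75th percentile, and cKO array 3 was the highest of all 6 arrays.

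Ski, a repressor that binds SMAD complexes on DNA, was lower in cKO on all 3 probes of NM_011385, and the size differed between them. The brightest (chr4:154528495-154528554, mm9, minus strand) read 4.02, 4.00 and 3.97 in cKO and 4.17, 4.08 and 4.30 in control, without overlap. The second (chr4:154529811-154529870) read 3.82, 3.49 and 3.44 in cKO and 3.93, 3.92 and 4.11 in control, also without overlap. The third, printed above, read -0.04, -0.32 and -0.33 in cKO and 0.09, -0.10 and 0.05 in control, where cKO array 1 lay among the controls.
The fitted differences were -0.19 (SE 0.10, 95% interval -0.44 to 0.06, limma adjusted p = 0.305) at the brightest probe, -0.41 (SE 0.14, 95% interval -0.75 to -0.07, limma adjusted p = 0.179) at the second and -0.25 (SE 0.13, 95% interval -0.55 to 0.06, limma adjusted p = 0.281) at the third. The second was the one below an unadjusted p of 0.05, with a linear ratio of 0.754. On slide 1 the values were -0.17, -0.35 and -0.32, and with normexp background correction and the 75th percentile -0.46, -0.62 and -0.20.

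Skil, the relative of Ski also called SnoN, which is degraded and then re-induced on TGF-β stimulation, did not separate the genotypes. The brighter probe (NM_011386, chr3:31021203-31021262, mm9, plus strand) read 3.13, 3.02 and 3.18 in cKO and 3.17, 3.12 and 3.33 in control. The second, printed above, read 0.26, 0.15 and 0.26 in cKO and 0.24, 0.19 and 0.40 in control. Both overlapped, with control array 3 the highest, and the differences were -0.10 (SE 0.11, 95% interval -0.36 to 0.17, limma adjusted p = 0.594) and -0.05 (SE 0.11, 95% interval -0.31 to 0.21, limma adjusted p = 0.783). The brighter was -0.32 with normexp background correction and the 75th percentile.

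**Figure D3:**
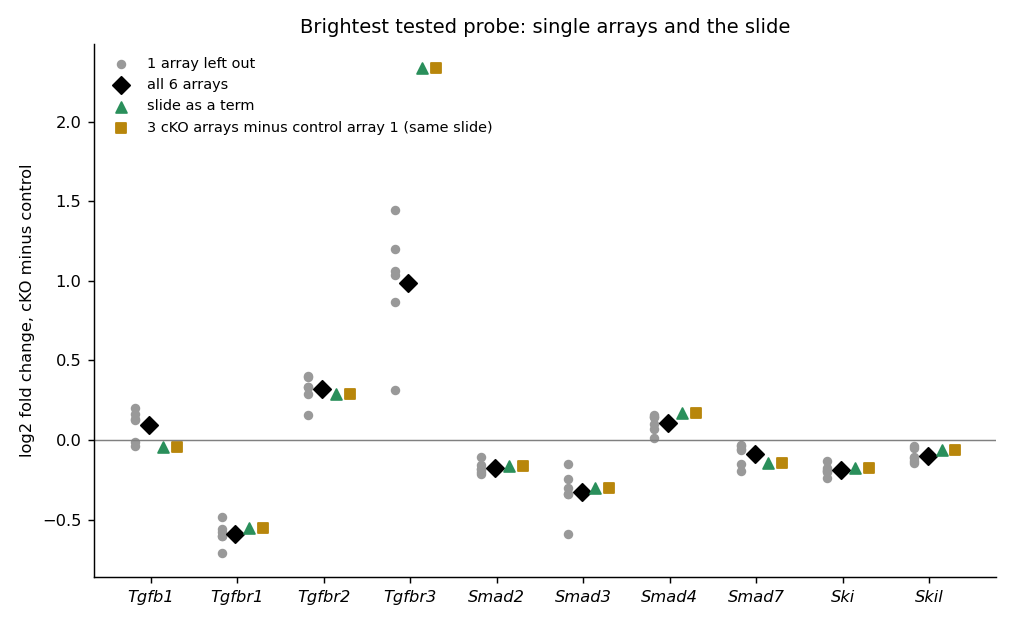
Log2 fold change, cKO minus control, of the brightest tested probe of each gene (vertical axis) with all 6 arrays (black), with each array left out in turn (grey), with slide as a model term (green) and as the mean of the 3 cKO arrays minus control array 1 of the same slide (gold). Tgfbr1 stays between -0.71 and -0.48 throughout, Tgfb1 lies on both sides of 0, and Tgfbr3 ranges from 0.31 to 2.33.

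The spread within the cKO group was wider than within control for most members. The SD over 3 arrays was larger in cKO at 13 of the 17 tested member probes (76.5%), where it was larger at 72.9% of all tested probes. Its median over the member probes was 0.18 in cKO and 0.10 in control on the log2 scale. Of the 3 cKO arrays, array 3 lay farthest from the group's median at 9 of the 17 probes (52.9%, beside 50.7% of all tested probes), among them those of Tgfbr2, Smad2 and Smad7 and the brighter Smad4 probe.

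Around these members, the rest of the pathway was followed with 86 genes grouped by role, each read by its brightest tested probe, and 73 of them were tested. The latency gene Lrrc33 (now Nrros), whose product holds latent TGF-β on the cell surface, was the only one with an adjusted p under 0.05, where 0.279% of all 14357 tested genes passed. At an unadjusted p under 0.05, 13 genes were lower, beside 11.5% of all tested genes, and 13 were higher, beside 12.0%. The counts of each role list below stand beside the same shares, and the lists are too small to be set apart by them. The groups did not overlap for 16 with cKO lower and for 15 with cKO higher, beside 21.4% and 16.6% of all tested genes. The median difference was -0.0024 over the 73 genes and -0.05 over all tested genes. The count of 13 lower became 6 without control array 2 and 6 without control array 3, and that of 13 higher became 7 without cKO array 2 and 7 without control array 3. Over all tested probes the count in either direction went from 5120 to 3077 without control array 2. It was 2865 without control array 3 and 4369 without cKO array 2.

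Among ligands, latency proteins and activators, 10 of 16 genes had a tested probe, with 1 lower and 4 higher at an unadjusted p under 0.05. Lrrc33 read 2.89, 2.92 and 2.91 in cKO and 3.79, 3.86 and 3.95 in control, a gap many times the spread within either group. Its difference was -0.96 (SE 0.10, 95% interval -1.19 to -0.72, limma adjusted p = 0.0467) and -0.88 on slide 1. The size held between -1.0 and -0.91 when any 1 array was left out, but the adjusted p then rose to between 0.0564 and 0.187, so the call was lost without any one of the 6 arrays. It was also lost with slide as a term, where the limma adjusted p was 0.327. With slide as a term 0 of all 22281 tested probes passed, and with any 1 array left out at most 1 did. The loss of the call was therefore not particular to Lrrc33.
Tgfb3, the ligand isoform, read -0.74, -0.32 and 2.21 in cKO and -1.31, -2.12 and -2.29 in control, a difference of 2.29 (SE 0.78, limma adjusted p = 0.180) that was 1.38 without cKO array 3. Ltbp3, a latent TGF-β binding protein, read -2.0, -0.74 and 0.88 in cKO and -3.47, -4.05 and -5.01 in control, where control array 3 was not well above background. Its brightest tested probe gave 3.56 (SE 0.76, limma adjusted p = 0.113) and its other tested probe 0.63, so its size depended on the probe. Ltbp4 was higher by 0.53 (SE 0.13, limma adjusted p = 0.123) without overlap. Lrrc32 (GARP), the Treg surface protein that holds latent TGF-β, was among the 6 genes without a tested probe.

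Of the other receptors and co-receptors, 8 of 11 were tested, and 3 were lower and 1 higher at an unadjusted p under 0.05. The type I receptor Acvr1c (ALK7) was lower by a difference of -0.80 (SE 0.24, limma adjusted p = 0.161) and the activin type II receptor Acvr2a by -0.88 (SE 0.34, limma adjusted p = 0.206), both without overlap. The 3 tested probes of Acvr1c ranged from -1.11 to -0.17, and Acvr1c was -0.13 with normexp background correction and the 75th percentile. Acvr2a was dim, with cKO array 2 not well above background, and its difference was -0.50 without that array and 0.14 with normexp background correction and the 75th percentile. The type I receptor Acvrl1 (ALK1) read -1.18, 0.06 and 0.98 in cKO and -1.92, -1.72 and -5.63 in control, a difference of 3.04 (SE 1.14, limma adjusted p = 0.200) that was 1.77 without control array 3, where it was not well above background.

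Of the SMAD adaptors and nuclear partners, 14 of 15 were tested, and 4 were lower and 1 higher at an unadjusted p under 0.05. The T cell transcription factors Runx1 and Runx3, which act with SMADs, stood in opposite directions: Runx1 read 0.78, 0.71 and 0.61 in cKO and 1.09, 1.14 and 1.52 in control, and Runx3 read 2.82, 2.73 and 3.12 in cKO and 2.45, 2.29 and 1.86 in control. Neither overlapped, and the differences were -0.55 (SE 0.15, limma adjusted p = 0.141) and 0.68 (SE 0.19, limma adjusted p = 0.149). Xpo4, an exportin for Smad3, was lower with -0.36 (SE 0.11) and the coactivator Crebbp with -0.28 (SE 0.10), with limma adjusted p-values of 0.170 and 0.187. The size depended on the probe for Runx1, whose other tested probe was at -0.16, and for Crebbp, whose 3 ranged from -0.28 to -0.05, and Xpo4 was -0.11 with normexp background correction and the 75th percentile.

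All 18 genes of inhibitors, phosphatases and ubiquitin enzymes had a tested probe, with 2 lower and 1 higher at an unadjusted p under 0.05. Pmepa1, a TGF-β-induced inhibitor of SMAD activation, read 1.38, 1.28 and 0.78 in cKO and 1.70, 1.69 and 1.91 in control, a difference of -0.62 (SE 0.18, limma adjusted p = 0.156). Its other tested probe stood at 0.42, so the direction of Pmepa1 differed between probes. The repressor Tgif2 was lower with -0.27 (SE 0.10, limma adjusted p = 0.203), and the ubiquitin enzyme Ube2o was higher with 0.27 (SE 0.10, limma adjusted p = 0.188) at one probe and stood at -0.11 at the other. Smad6, the other inhibitory SMAD, differed by 0.05 (SE 0.17, limma adjusted p = 0.862), and the ligases Smurf1 and Smurf2, which Smad7 recruits, by -0.26 and 0.20 with limma adjusted p-values of 0.224 and 0.293. Smad6 was 0.37 on slide 1, -0.11 without control array 1 and 0.58 with normexp background correction and the 75th percentile, and the 3 tested probes of Smurf2 ranged from -0.09 to 0.20, so neither had a settled direction. These 3 genes were chosen for their link to Smad7 after their values were seen.

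Of the non-SMAD branch, in which the receptors signal through Traf6 and the p38 kinases, all 10 genes had a tested probe, with 1 lower and 2 higher at an unadjusted p under 0.05. Traf6 was lower with -0.61 (SE 0.23, limma adjusted p = 0.200) and -0.29 at its other tested probe, and the kinase Map2k6 and the polarity protein Pard6a were higher with 0.95 (SE 0.35, limma adjusted p = 0.192) and 0.24 (SE 0.10, limma adjusted p = 0.209). None of the 3 overlapped between the groups. Map2k6 was 0.64 without cKO array 3 and 1.30 without cKO array 1.

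Among transcripts that TGF-β is known to raise, 13 of 16 were tested. Of these, 2 were lower and 4 higher at an unadjusted p under 0.05, beside 11.5% and 12.0% of all tested genes. The list had genes in both directions. Gpr83, a receptor abundant on Treg cells, read 2.77, 2.52 and 1.43 in cKO and 4.03, 4.26 and 4.44 in control, a difference of -2.0 (SE 0.36, limma adjusted p = 0.0897) and -1.79 on slide 1. The cell cycle inhibitor Cdkn1a read 3.37, 3.80 and 3.33 in cKO and 2.76, 2.66 and 2.47 in control, a difference of 0.87 (SE 0.16, limma adjusted p = 0.0966). The transcription factor Ahr stood at 0.69 (SE 0.19, limma adjusted p = 0.145) and the transglutaminase Tgm2 at 2.34 (SE 0.83, limma adjusted p = 0.188), the latter at 1.45 without control array 3.
Foxp3, on which the polarization with TGF-β is judged, read 3.16, 3.12 and 2.45 in cKO and 3.42, 3.42 and 3.76 in control. The groups did not overlap, and the difference of -0.62 (SE 0.22, limma adjusted p = 0.192) was -0.39 without cKO array 3 and -0.50 on slide 1. It was named here beside the genes picked by the rule because it marks the cells, and it does not stand for the Treg markers as a list. Of the 7, 2 stood lower (Foxp3 and Il2ra, the latter at -0.56) and 5 higher: Ctla4 at 0.94 without overlap (limma adjusted p = 0.135), Itgae at 0.85, Ikzf2 at 0.51, Tnfrsf18 at 0.40 and Ikzf4 at 0.06. The groups overlapped for Il2ra, Itgae, Ikzf2, Tnfrsf18 and Ikzf4. On slide 1 Il2ra was -0.45, Ctla4 0.66, Itgae 0.06, Ikzf2 -0.02, Tnfrsf18 0.18 and Ikzf4 0.14. Without control array 3 Itgae was 0.37, Ikzf2 0.03 and Tnfrsf18 0.20, so their size rested largely on that array. The median difference of the 7 was 0.40 with all 6 arrays, and at an unadjusted p under 0.05 there was 1 lower and 1 higher.

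**Figure D4:**
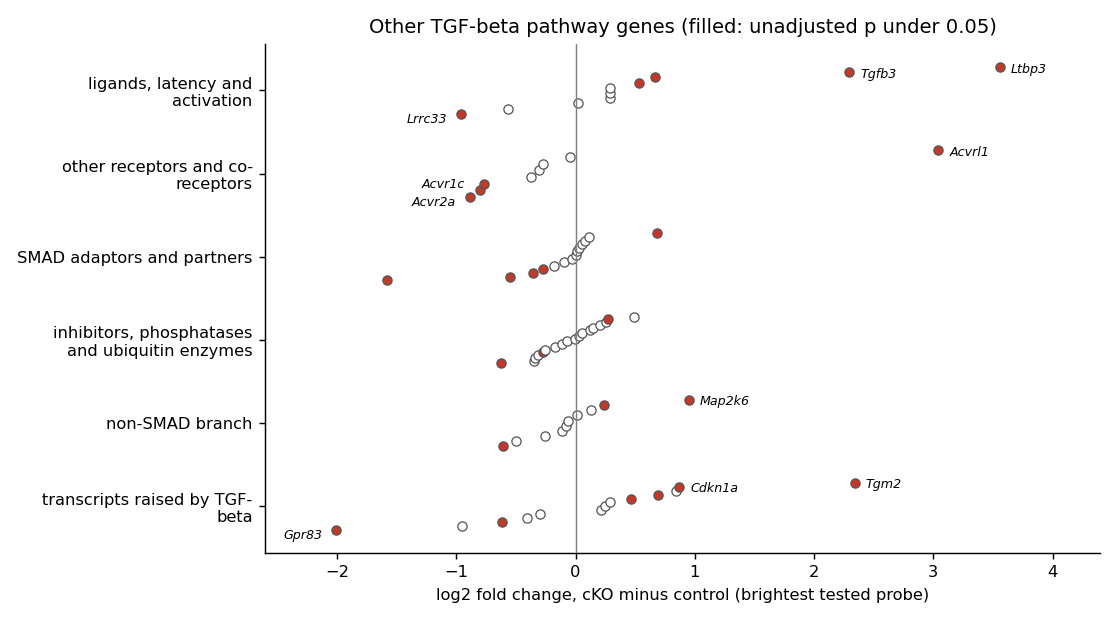
Log2 fold change, cKO minus control, of the brightest tested probe of 73 other TGF-β pathway genes (points) in 6 role lists (vertical axis, points spread for legibility); filled points had an unadjusted p under 0.05. Every list has points on both sides of 0, and Lrrc33 at -0.96 is the single gene with an adjusted p under 0.05.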

How the data were processed

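RNA of 6 iTreg cultures, 1 mouse each, was hybridized to one-colour Agilent mouse arrays (0.5 µg RNA per array per the labels). The authors deposited scanner output of Agilent Feature Extraction, version 10.7.3.1 per the file headers and 9.1 per the submitters' processing notes, whose processed signal is a background-subtracted intensity. They also deposited a table of log2 values, quantile-normalized as far as the values show (column medians of 6.15), which served as an alternative.

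Control spots and outlier spots were left out, spots of a probe were averaged as log2 intensity, and each array was scaled to its 75th percentile over non-control spots. The 22281 probes that 3 or more arrays read well above background were tested with limma 3.58.1 in R 4.3.3 (lmFit and eBayes, Benjamini-Hochberg over all tested probes, threshold 0.05), after the script was tested on simulated data. The number of arrays limits the precision. All 16 member probes with a RefSeq transcript matched the same symbol in the RefSeq table of GRCm38.p6, and probe coordinates are mm9 as the array files give them, unconverted.

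All members were named. Of each pathway list, the genes named were those with an adjusted p under 0.05 and up to 4 with the largest difference among those with an unadjusted p under 0.05 and groups that do not overlap. The members and lists were chosen with earlier results of these data known. Replicate numbers did not pair the samples: the correlations of deviations from the group means between same-numbered arrays were -0.14, 0.01 and -0.19. Alternatives were other background corrections and scalings, filters, blocks for slide and replicate number, array weights, the methods' t-test, the mean over probes, and each array left out in turn.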

Additional observations from a re-analysis of the deposited data

How the results depend on the processing

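The log2 differences of the tested member probes and of the other named pathway genes, at their brightest tested probe, were followed through the alternatives. Of these, 6 changed sign under at least 1 alternative. The rest, those of Tgfbr1, Tgfbr2, Tgfbr3, Smad2, Smad7 and Ski among them, kept it under all that were run. The cell type markers other than Foxp3 were not part of this count. Among those markers, Ikzf2 went from 0.51 to -0.02 with slide as a term. Tgfb1 turned to -0.15 with normexp and the 75th percentile and to -0.042 with the slide block, and ranged from -0.038 to 0.20 when each array was left out in turn. Smad4 turned to -0.11, the dimmer Smad3 probe to 0.53 and Acvr2a to 0.14 with normexp and the 75th percentile, the dimmer Smad3 probe to 0.036 with the slide block, and the second Skil probe ranged from -0.094 to 0.011 with arrays left out. Smad6 turned to -0.030 with normexp and quantile and ranged from -0.11 to 0.17 with arrays left out. Normexp with the 75th percentile also moved the median difference of all tested probes from -0.04 to 0.10 on the log2 scale, so its signs are relative to that shift. The cause of these turns was not tested.

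The count of member probes with an adjusted p under 0.05, which was 0, became 3 when arrays were weighted and 1 at a looser threshold of 0.10. With array weights 2205 of all 22281 tested probes passed. The member count stayed 0 with any 1 array left out, where at most 1 probe of the whole array passed, so a 0 there tells little about the members. With array weights, which ranged from 0.173 (cKO array 3) to 5.05 (control array 2), Tgfbr1 at -0.41 and Smad3 at -0.56 passed. The 3 member probes lower at an unadjusted p under 0.05 became 1 with normexp and the 75th percentile, 1 with the slide block and 5 with array weights, and ranged from 2 to 4 with arrays left out. The 0 higher became 1 with normexp and quantile, 1 with the slide block and 2 with array weights, and ranged from 0 to 1. Over all 22281 tested probes, 5120 had an unadjusted p under 0.05 in either direction. That number became 1654 with normexp and the 75th percentile, 5366 with normexp and quantile, 1646 with the slide block and 7566 with array weights.

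The 1 other pathway gene with an adjusted p under 0.05 became 0 with the replicate block, the slide block, the methods' t-test, all probes unfiltered, normexp with 75th-percentile scaling, or any 1 array left out. In those fits at most 1 probe of the whole array passed. The pathway count became 7 when arrays were weighted, where 2205 of all 22281 tested probes passed, and 3 at a looser threshold of 0.10. The 13 lower at an unadjusted p under 0.05 became 4 with normexp and the 75th percentile, 6 with the replicate block and 3 with the slide block, and ranged from 6 to 17 with arrays left out. The 13 higher became 8 with normexp and the 75th percentile, 8 with the methods' t-test, 7 with the replicate block and 3 with the slide block, and ranged from 7 to 13. Over all tested probes the count in either direction fell from 5120 to 1654, 4018, 3627 and 1646 in these 4 fits. With arrays left out it ranged from 2865 to 6465. The replicate block, entered although the numbers did not pair the samples, left 0 member probes at an adjusted p under 0.05.

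The threshold sat on an edge: of the 54 probes of the whole array with an adjusted p under 0.05, 26 had one of 0.049 or more, and the count was 0 with the slide block, 28 with quantile scaling and 2205 with array weights. Each genotype had 3 arrays and slide 1 a single control, and the dimmer probes of Tgfbr2, Tgfbr3 and Smad3 lay near background.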
